A study of Bos taurus with 4 samples.

Results

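The BCL2 family decides whether the outer mitochondrial membrane of a cell is breached during apoptosis. Effectors of the family form pores in that membrane and let cytochrome c out, survival members hold the effectors back, and BH3-only members carry death signals to both. Apoptosis takes place in normal bovine blastocysts, where it removes single cells, mostly of the inner cell mass, and cryopreservation is a known source of cell death in embryos. Transcript levels of 9 family genes were followed here, namely the effectors BAX, BAK1 and BOK, the survival genes BCL2, BCL2L1 and MCL1, and the BH3-only genes BID, BAD and BCL2L11. Every probe that the platform table of the EMBV3 bovine embryo array assigns to 1 of these symbols was taken, which gave 13 of the 43794 probes on the array, for 9 of the 15216 genes with a symbol. Of these, 12 probes of 8 genes passed the filter on low signal and were tested among 30034 kept probes, and the BAD probe did not pass.

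The study compared in vitro produced bovine blastocysts of cattle labelled as beef, collected as expanded blastocysts after the parent morulae had been cryopreserved and cultured again. Vitrified morulae were cooled on a cryotop in ethylene glycol and dimethyl sulfoxide, which lets the solution turn to glass without ice. Slow-frozen morulae were cooled in straws in a controlled-rate freezer in glycerol, which lets ice form outside the cells. There were 4 pools from vitrified and 4 from slow-frozen morulae, each of 7 blastocysts by the labels (the methods also allow smaller pools), and blastocysts of unfrozen morulae are not analysed here. All pools share in vitro maturation, fertilisation and culture, a cryopreservation step and growth to the expanded stage. Morulae that did not reach that stage left no RNA in either group, so cryopreservation method and survival after it cannot be told apart. According to the methods each group was hybridised on a slide of its own, so slide and group cannot be told apart either. The labels and methods describe the pools as separate biological replicates. By the methods each replicate was a cycle of embryo production and cryopreservation that gave 1 tube per treatment, but the sources used here do not say whether the replicate numbers mark these cycles.

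Median raw intensity ranged from 109 to 384 between pools, and 63.3% to 74.1% of probes lay above the negative control spots. The first principal component held 24.8% of the variance and ran from 56.6 (vitrified replicate 3) to -34.3 (slow-frozen replicate 2), so single pools stood apart more than groups. Of the trophectoderm markers, 6 were measured. At their brightest probes 5 were lower in vitrified pools, beside 5597 lower of all 11728 genes, and 0 had an unadjusted p under 0.05 (limma). The other TEAD4 probe was at 0.01. The summed intensity of the 6 ran from 94504 to 127919 in vitrified pools and from 124725 to 131588 in slow-frozen pools. That sum is mostly KRT8, KRT18 and TFAP2C, with group means of 14.88 to 15.80, against 8.09 to 9.10 for CDX2, GATA3 and TEAD4. The inner cell mass markers POU5F1, SOX2 and NANOG were measured, with a summed intensity of 8144 to 9106 in vitrified pools and 6228 to 11140 in slow-frozen pools. Their log2 differences were 0.36 for POU5F1 (unadjusted p = 0.0901), 0.29 for SOX2 (unadjusted p = 0.127) and -0.08 for NANOG (unadjusted p = 0.916, limma). The NANOG difference was poorly determined, with an SE of 0.74 and slow-frozen replicates 1 to 4 at 8.71, 12.73, 12.28 and 9.91. The trophectoderm keratin KRT8 differed by -0.37 (unadjusted p = 0.0792, limma). KRT8 was low only in vitrified replicates 3 and 4 (14.94 and 14.84), while replicates 1 and 2 (15.95 and 16.00) lay above every slow-frozen pool. Vitrified replicates 3 and 4 carried Cy3, and 1 and 2 carried Cy5. KRT18 differed by -0.28 (unadjusted p = 0.0828, limma) without that split, at 14.69, 14.69, 15.28 and 14.87 in vitrified replicates 1 to 4. The trophectoderm marker TFAP2C was higher in vitrified pools, at 0.05, 0.03 and 0.26 (unadjusted p = 0.765, 0.846 and 0.0846, limma). Of the hypoblast markers only PDGFRA was tested, with log2 differences of 0.83, 0.18 and 0.08 at its 3 probes (unadjusted p = 0.0622, 0.450 and 0.632, limma). Cumulus markers were dim, with 4 tested, a summed intensity of 610 to 752 in vitrified pools and 659 to 888 in slow-frozen pools, and the cumulus gene HAS2 below the filter. The 3 blood cell markers summed to 945 to 1372 in vitrified pools and 1002 to 1459 in slow-frozen pools, and they moved in different directions (PTPRC -0.42, unadjusted p = 0.046, HBA -0.20, unadjusted p = 0.245, and HBB 0.37, unadjusted p = 0.157, limma). The part that cell type shares play in the results for the BCL2 family was not tested, and fewer cells of a type and less RNA per cell cannot be told apart in pooled embryos.

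BAX was lower in blastocysts from vitrified than from slow-frozen morulae, by 1.39-fold, although the difference did not pass adjustment over the array. With the probes of a gene averaged, BCL2, BCL2L1, MCL1, BAK1, BOK, BID and BCL2L11 had log2 differences between -0.13 and 0.11, each with an interval that spans 0. Of the 12 tested family probes, 4 were higher and 8 lower in vitrified pools, beside 15445 higher and 14589 lower of all 30034 probes. BCL2L1 and MCL1 each enter this count with 3 probes, and BCL2L11 passed the filter only through the slow-frozen pools. The median log2 difference was -0.07 over the family probes, beside 0.01 over all probes. An unadjusted p under 0.05 was found for 1 of the 12, the BAX probe, which was lower, where 4.81% of all probes had such a p in either direction and 2.36% in the lower direction. After Benjamini-Hochberg adjustment over all probes 0 of the 12 family probes passed in limma, and 0.00333% of all probes did. A fold of at least 2 with an unadjusted p under 0.05, the thresholds of the study, was met by 0 of the 12 and by 0.19% of all probes. The vitrified and slow-frozen pools did not overlap for 2 of the 12, the BAX probe and 1 of 3 BCL2L1 probes, and for 2.47% of all probes.

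**Figure D1:**
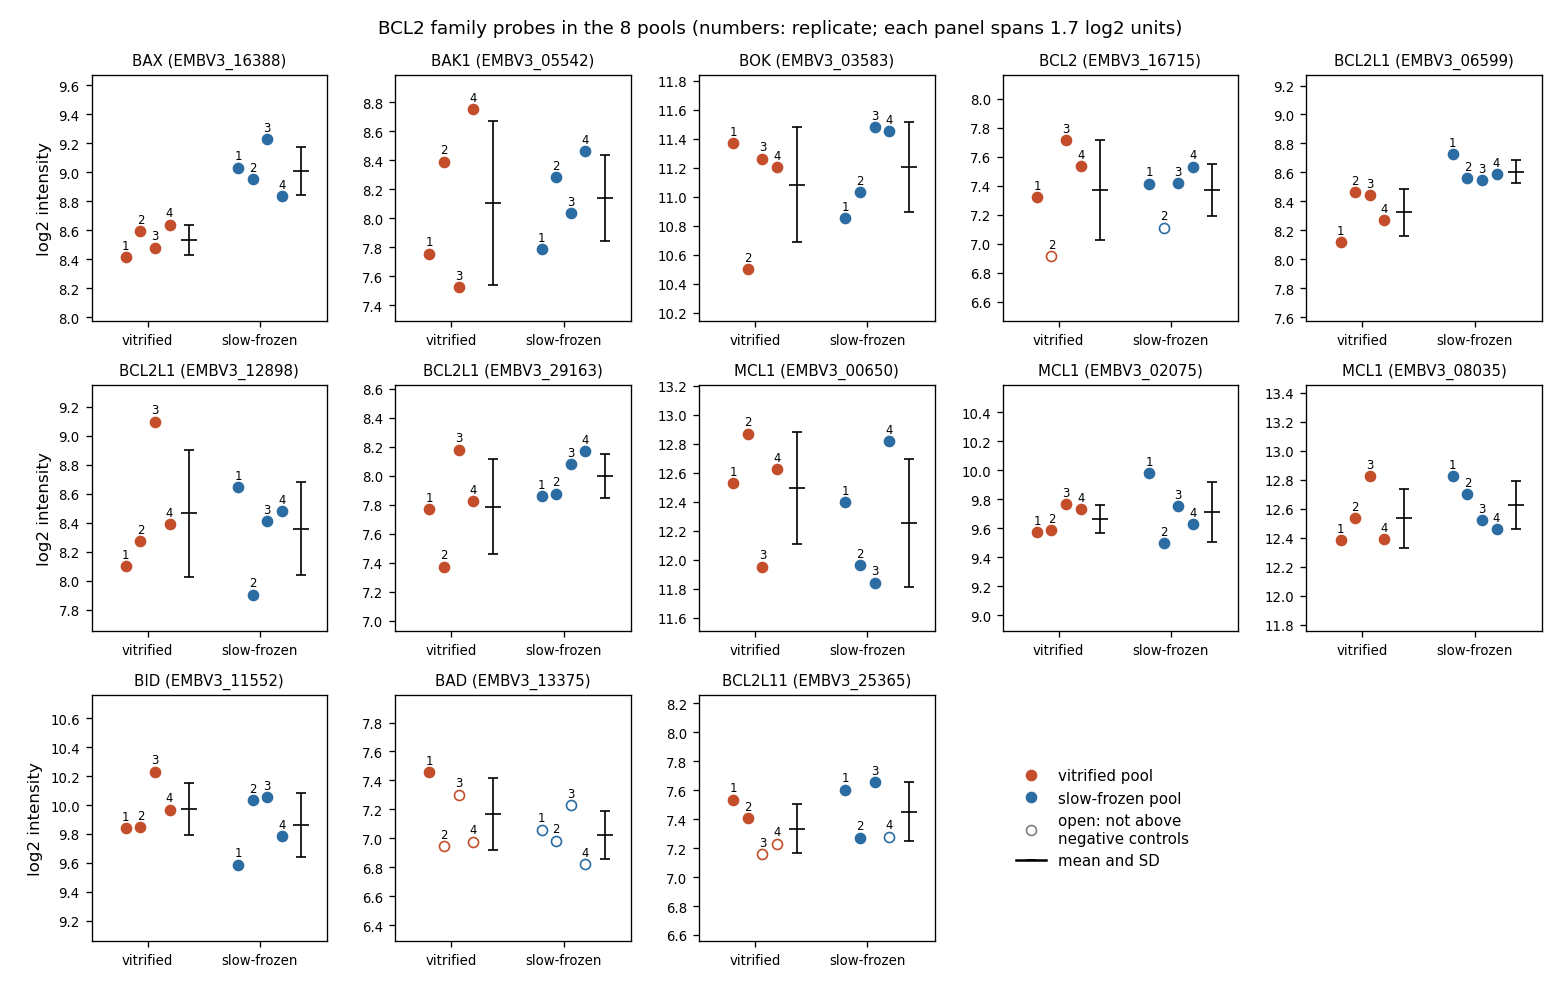
Normalised log2 intensity of all 13 BCL2 family probes in the 4 vitrified pools (left, orange) and the 4 slow-frozen pools (right, blue), with replicate numbers, and the mean and SD of each group as a bar at its right; open points lay at or below the negative control bound of their pool. The BAX pools lie at 8.42 to 8.64 in vitrified and 8.83 to 9.23 in slow-frozen blastocysts, while most other panels show mixed groups.

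Among the effectors, BAX, which moves from the cytosol into the mitochondrial membrane and forms pores there, was read by a single probe (EMBV3_16388). Its normalised log2 intensity was 8.42, 8.60, 8.48 and 8.64 in vitrified replicates 1 to 4, and 9.03, 8.95, 9.23 and 8.83 in slow-frozen replicates 1 to 4. All 4 vitrified pools thus lay below all 4 slow-frozen pools. The means were 8.53 ± 0.10 in vitrified and 9.01 ± 0.17 in slow-frozen pools (SD, n = 4 each), a log2 difference of -0.48 ± 0.14 (SE) with a 95% interval of -0.79 to -0.17. The unadjusted p was 0.00643 and the adjusted p was 0.851 (limma), and BAX stood at rank 227 of the 30034 probes by p. The signal was modest but measured in every pool, at 1.64 to 3.94 times the negative control bound. Raw BAX intensity, before any correction, was 273, 337, 544 and 518 in vitrified replicates 1 to 4, and 458, 386, 734 and 510 in slow-frozen replicates 1 to 4. With the raw log2 values only centred on the median of each pool, the vitrified pools ran from 0.50 to 1.32 and the slow-frozen pools from 1.14 to 1.73, so that the groups overlapped. The difference on that scale was -0.47 (unadjusted p = 0.0405, limma). In the 5 normalised versions of the data the BAX groups did not overlap, and leaving out each pool in turn gave differences from -0.56 to -0.40.

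BAK1, the effector that sits in the mitochondrial membrane at all times, varied more between pools than between groups. Its log2 intensity was 7.76, 8.39, 7.53 and 8.75 in vitrified replicates 1 to 4, and 7.79, 8.28, 8.04 and 8.46 in slow-frozen replicates 1 to 4. The groups overlapped almost wholly, and in both of them replicates 2 and 4 were the higher ones. The difference was -0.04 ± 0.26 (SE; 95% interval -0.62 to 0.55, unadjusted p = 0.894, adjusted p = 1.00, limma), so that neither a decrease of 0.62 nor an increase of 0.55 lies outside it. The residual SD of 0.49 was larger than that of 94.4% of all kept probes. By comparison the BAX residual SD was 0.15, in the lowest 16.0% of probes.

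BOK, an effector relative whose protein is kept low by degradation in mammalian cells, gave a signal at 8.47 to 29.0 times the negative control bound. Its log2 intensity was 11.37, 10.50, 11.26 and 11.20 in vitrified replicates 1 to 4, and 10.85, 11.03, 11.48 and 11.45 in slow-frozen replicates 1 to 4. Vitrified replicate 2 was the lowest of the 8 pools, and the groups overlapped. The difference was -0.12 ± 0.19 (SE; 95% interval -0.53 to 0.29, unadjusted p = 0.532, limma), and it was 0.03 without vitrified replicate 2. Among the 3 effector probes, 1 had an unadjusted p under 0.05 (limma), beside 4.81% of all probes. All 3 had a negative difference, as had 14589 of all 30034 probes. Those of BAK1 and BOK had intervals that span 0, and their sign turned when some single pools were left out.

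**Figure D2:**
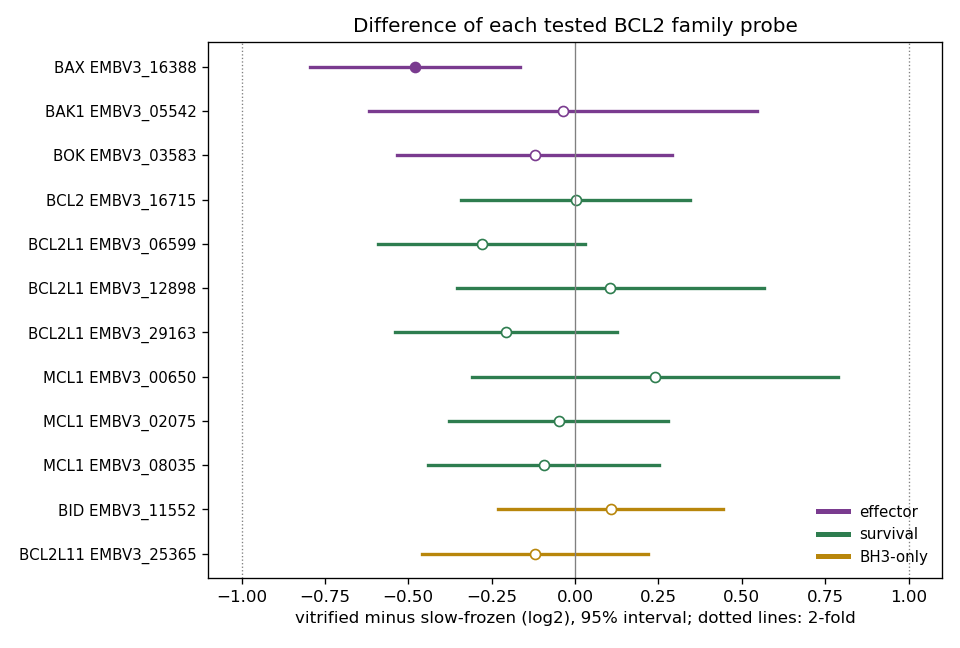
Log2 difference, vitrified minus slow-frozen, of the 12 tested BCL2 family probes with its 95% interval (n = 4 pools each), coloured by role; a filled point has an unadjusted p under 0.05. The BAX interval of -0.79 to -0.17 lies below 0, every other interval spans 0, and all intervals stay inside a 2-fold change (dotted lines).

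Of the survival genes, BCL2, the founding member, which binds effectors and BH3-only proteins, was near the detection bound. Its probe (EMBV3_16715) was above the negative controls in 3 of 4 vitrified and 3 of 4 slow-frozen pools, at 0.781 to 1.27 times the bound. Its log2 intensity was 7.32, 6.91, 7.71 and 7.53 in vitrified replicates 1 to 4, and 7.41, 7.11, 7.42 and 7.53 in slow-frozen replicates 1 to 4. The group means were nearly equal, with replicate 2 the lowest pool of each group. The difference was 0.00 ± 0.16 (SE; 95% interval -0.34 to 0.34, unadjusted p = 0.990, limma), and its sign turned under several processing settings.

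BCL2L1, which encodes BCL-XL, a survival protein, and by splicing a shorter death-promoting form, had 3 probes, and the files do not say which transcript form each one reads. The first probe (EMBV3_06599) gave 8.12, 8.46, 8.44 and 8.27 in vitrified replicates 1 to 4, and 8.72, 8.56, 8.55 and 8.59 in slow-frozen replicates 1 to 4. The groups did not overlap, with a gap of less than 0.1 between the nearest pools. The difference was -0.28 ± 0.14 (SE; 95% interval -0.59 to 0.03, unadjusted p = 0.0723, adjusted p = 1.00, limma). The groups did overlap after loess with median centring only, and on raw median-centred values. A second probe (EMBV3_12898) went the other way, at 8.10, 8.27, 9.10 and 8.39 in vitrified replicates 1 to 4, and 8.64, 7.90, 8.41 and 8.48 in slow-frozen replicates 1 to 4. Its groups overlapped, and vitrified replicate 3 was the highest of the 8 pools. Its difference was 0.11 ± 0.21 (SE; unadjusted p = 0.624, limma), and -0.07 without vitrified replicate 3. The other probe (EMBV3_29163) gave 7.77, 7.37, 8.18 and 7.83 in vitrified replicates 1 to 4, and 7.86, 7.88, 8.08 and 8.17 in slow-frozen replicates 1 to 4. It overlapped between groups, with a difference of -0.21 ± 0.15 (SE; unadjusted p = 0.195, limma). The 3 probes of BCL2L1 thus disagreed in sign, and their mean per pool differed by -0.13 ± 0.14 (SE; 95% interval -0.45 to 0.19, unadjusted p = 0.398, limma).

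MCL1, a survival protein that turns over fast and is needed by the early mouse embryo, also had 3 probes. The probe with the widest spread (EMBV3_00650) gave 12.53, 12.87, 11.95 and 12.63 in vitrified replicates 1 to 4, and 12.40, 11.96, 11.84 and 12.82 in slow-frozen replicates 1 to 4. The groups overlapped, and slow-frozen replicate 4 lay among the high vitrified pools. The difference was 0.24 ± 0.25 (SE; 95% interval -0.31 to 0.79, unadjusted p = 0.354, limma). It depended on single pools, at 0.10 without slow-frozen replicate 2, 0.10 without slow-frozen replicate 3, 0.12 without vitrified replicate 2 and 0.16 if vitrified replicate 4 is dropped, against 0.49 without slow-frozen replicate 4 and 0.43 without vitrified replicate 3. Of these only the fit lacking slow-frozen replicate 4 had an unadjusted p under 0.05 (0.0385, adjusted p = 0.788, limma). The residual SD of this probe was larger than that of 92.1% of kept probes. A second MCL1 probe (EMBV3_02075) gave 9.58, 9.59, 9.77 and 9.73 in vitrified replicates 1 to 4, and 9.98, 9.50, 9.75 and 9.63 in slow-frozen replicates 1 to 4. Both its highest and its lowest value were those of slow-frozen pools, and the difference was -0.05 ± 0.15 (SE; unadjusted p = 0.747, limma). The other MCL1 probe (EMBV3_08035) gave 12.38, 12.53, 12.82 and 12.39 in vitrified replicates 1 to 4, and 12.82, 12.70, 12.52 and 12.46 in slow-frozen replicates 1 to 4. Its groups overlapped too, with a difference of -0.09 ± 0.16 (SE; unadjusted p = 0.563, limma). The mean of the 3 MCL1 probes differed by 0.03 ± 0.14 (SE; 95% interval -0.27 to 0.34, unadjusted p = 0.816, limma). That mean evens out opposed movements of the probes. Vitrified replicate 3 was the lowest vitrified pool at EMBV3_00650 (11.95) and the highest at EMBV3_08035 (12.82). Which transcript form each MCL1 probe reads could not be checked. Of the 7 survival probes 3 were higher and 4 lower in vitrified pools, and 0 had an unadjusted p under 0.05 in limma.

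**Figure D3:**
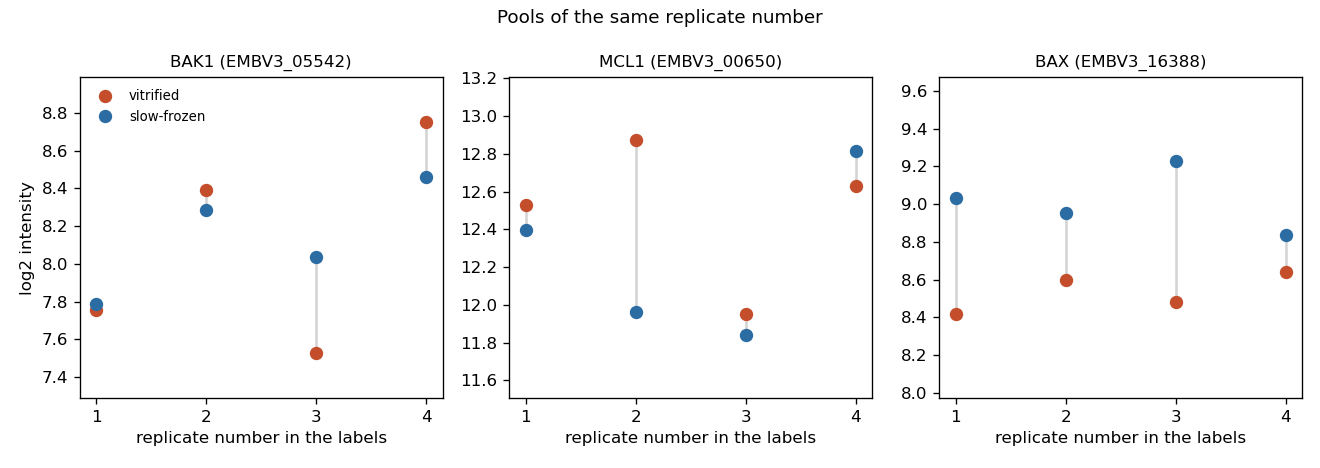
Log2 intensity of BAK1, of MCL1 probe EMBV3_00650 and of BAX by the replicate number in the labels, with vitrified pools in orange, slow-frozen pools in blue and a grey line between pools of 1 number. Replicates 2 and 4 are the higher pools in both groups for BAK1, and the MCL1 pools differ most at replicate 2 (0.91 higher in the vitrified pool). BAX is lower in the vitrified pool at all 4 numbers, which any pairing would give, since the BAX groups do not overlap.

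Of the BH3-only genes, BID, which caspase cleavage turns into an activator of BAX and BAK1, was clearly detected. Its log2 intensity was 9.84, 9.85, 10.23 and 9.97 in vitrified replicates 1 to 4, and 9.59, 10.03, 10.05 and 9.79 in slow-frozen replicates 1 to 4. The groups overlapped, and the difference was 0.11 ± 0.15 (SE; 95% interval -0.23 to 0.44, unadjusted p = 0.502, limma). BCL2L11, which encodes BIM, a BH3-only protein that binds the survival members, was dim. Its probe (EMBV3_25365) was above the negative controls in 2 of 4 vitrified and 3 of 4 slow-frozen pools, so it passed the filter only through the slow-frozen pools. Its log2 intensity was 7.53, 7.41, 7.16 and 7.23 in vitrified replicates 1 to 4, and 7.60, 7.27, 7.65 and 7.28 in slow-frozen replicates 1 to 4. The groups overlapped, with a difference of -0.12 ± 0.15 (SE; 95% interval -0.46 to 0.22, unadjusted p = 0.454, limma). BAD, whose protein is held inactive by phosphorylation in cells that receive growth factors, was above the negative controls in 1 of 4 vitrified and 0 of 4 slow-frozen pools and was not well above background in either group. Without the filter its difference was 0.15 ± 0.16 (SE; unadjusted p = 0.374, limma), at 0.686 to 1.15 times the bound, so no difference in BAD was detectable at this signal.

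BAX was also set beside the other tested members within each pool, since the balance of effectors and survival members is what the family is known for. Each probe was first centred on its mean over the 8 pools, so that only changes between pools and not levels of different probes were compared. BAX minus BCL2 ran from -0.64 to 0.28 in vitrified pools and from -0.10 to 0.44 in slow-frozen pools, and the groups overlapped. BAX minus BID ran from -0.60 to -0.11 in vitrified pools and from 0.07 to 0.59 in slow-frozen pools, with no overlap. BAX minus the first BCL2L1 probe (EMBV3_06599) ran from -0.27 to 0.06 in vitrified pools and from -0.06 to 0.37 in slow-frozen pools, again with overlap. In all, the groups were apart for 4 of the 11 such differences, those with BID, BCL2L11, MCL1 EMBV3_02075 and BCL2L1 EMBV3_12898, while they were apart for 36.9% of the differences between BAX and any other kept probe. The share for the family was thus near that of the whole array. BCL2L11 had passed the filter only through the slow-frozen pools, and all 11 contain the same BAX values and are given as a description, with no test.

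Dye was balanced between groups, but replicates 1 and 2 carried Cy5 and replicates 3 and 4 carried Cy3 in both, so dye and replicate number cannot be told apart. The dye term had an unadjusted p under 0.05 for 3 of the 12 family probes, against 7.28% of all probes, and passed adjustment for 0 of them (limma). The 3 were BOK (-0.41 in Cy5, unadjusted p = 0.0496), BCL2 (-0.36, unadjusted p = 0.0417) and BCL2L1 EMBV3_29163 (-0.34, unadjusted p = 0.0442), all brighter in Cy3 pools. For BAX the dye term was -0.05 (unadjusted p = 0.753, limma).

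**Figure D4:**
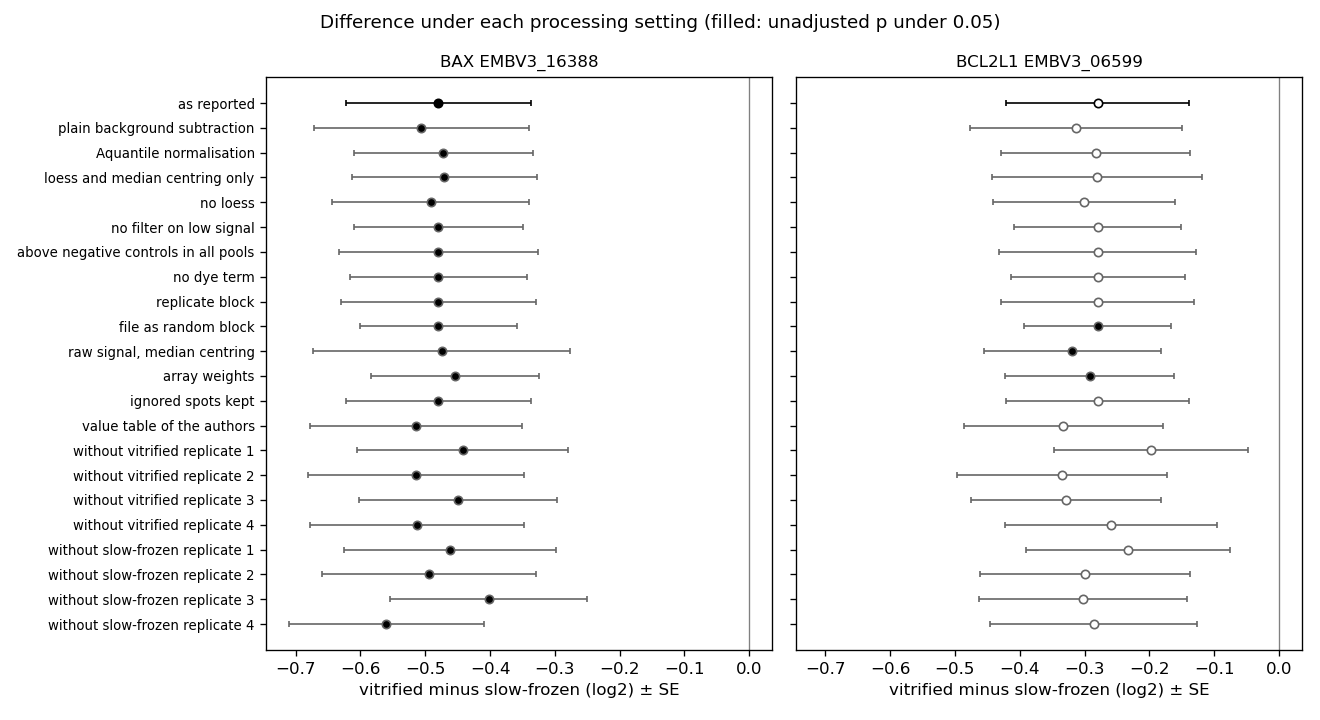
Log2 difference, vitrified minus slow-frozen, of BAX (left) and BCL2L1 EMBV3_06599 (right) with its SE, as reported (top row) and under 21 other settings, among them each pool left out; a filled point has an unadjusted p under 0.05. BAX stayed between -0.56 and -0.40 and filled in every row, while BCL2L1 EMBV3_06599 stayed below 0 and is filled under 3 settings. The rows draw on the same pools and are not independent.

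The genes that work with the BCL2 family were examined in 6 lists, each gene by its brightest kept probe. Of 53 genes tested in these lists, 1 had an unadjusted p under 0.05 and 0 passed adjustment in limma, whereas 5.93% of all 11728 genes had an unadjusted p under 0.05. Of 14 other family members 7 were tested, with a median difference of 0.01 and 0 of them with an unadjusted p under 0.05. BCL2L13, a mitochondrial family member with a role in mitophagy, differed by -0.44 ± 0.30 (SE) at its brightest probe and by 0.02 at its other probe, and at the brightest probe slow-frozen replicate 4 (8.85) stood far below the other slow-frozen pools (10.19 to 10.39). BCL2L2, a survival member also known as BCL-W, differed by -0.13 ± 0.26 and at its other probe by -0.23, and BCL2A1, another survival member, by 0.08 ± 0.17 (SE).

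Release factors and membrane partners of the mitochondrion were well covered, with 15 of 16 genes tested, a median difference of 0.02 and 0 with an unadjusted p under 0.05 (limma). VDAC2, the outer membrane channel that brings BAK1 and BAX to the membrane, differed by -0.26 ± 0.16. DIABLO, which is released to block the inhibitors of apoptosis, differed by 0.18 ± 0.15, and SLC25A4, an inner membrane exchanger of ADP and ATP, by 0.26 ± 0.21 (SE). Downstream of the mitochondrion, 7 of 12 genes of the apoptosome, the caspases and their substrates were tested, with a median of -0.05. There PARP1, a DNA repair enzyme that caspases cut, differed by 0.24 ± 0.17, DFFA, the inhibitor of the apoptotic nuclease, by -0.14 ± 0.14, and ACIN1, a factor in chromatin condensation, by 0.17 ± 0.18 (SE). One of the probes of CASP9, the initiator caspase of the apoptosome (EMBV3_06676), was singled out after its values were seen, at -0.45 ± 0.20 (SE; unadjusted p = 0.0445, adjusted p = 1.00, limma), while the brightest CASP9 probe differed by -0.12 ± 0.18.

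Among the inhibitor of apoptosis proteins 4 of 7 were tested. At their brightest probes all 4 were lower in vitrified pools, with a median of -0.09, beside 5597 lower of all 11728 genes. The other probe of BIRC6 was at 0.05. BIRC3 differed by -0.14 ± 0.18, XIAP, which inhibits caspases directly, by -0.09 ± 0.16, and BIRC5, or survivin, by -0.09 ± 0.21 (SE) and at its other probe by -0.29. Death receptors, ligands and adaptors, which reach the BCL2 family through BID, had 11 of 14 genes tested and a median of 0.06. RIPK1, a kinase of death receptor complexes, differed by 0.29 ± 0.16, TNFRSF1A, the main TNF receptor, by -0.47 ± 0.26, and FADD, the adaptor of FAS, by -0.17 ± 0.18 (SE) and at its other probe by 0.08. None of these 3 had an unadjusted p under 0.05 in limma. TNFRSF1A and XIAP were each above the negative controls in 3 of 4 vitrified pools. The TNFRSF1A values ran from 6.96 in vitrified replicate 3 to 8.61 in slow-frozen replicate 2.

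The list of regulators of BCL2 family proteins held the 1 gene of the 53 with an unadjusted p under 0.05. BTRC, a substrate receptor of an SCF ubiquitin ligase, had log2 intensities of 9.37, 9.52, 8.99 and 9.27 in vitrified replicates 1 to 4, and 8.99, 8.40, 8.76 and 9.12 in slow-frozen replicates 1 to 4. The groups overlapped, since slow-frozen replicate 4 was above vitrified replicate 3. The difference was 0.47 ± 0.19 (SE; unadjusted p = 0.0309, adjusted p = 0.980, limma). It missed that threshold without vitrified replicate 1 (0.44), 2 (0.38) or 4 (0.47), and without slow-frozen replicate 2 (0.30) or 3 (0.45), with unadjusted p-values of 0.0574 to 0.115 (limma). It also missed it with median centring only (0.46, unadjusted p = 0.0762) and on raw median-centred values (0.49, unadjusted p = 0.0826, limma). FBXW7, a receptor of another SCF ligase, which marks MCL1 for degradation, differed by 0.34 ± 0.15 (SE; unadjusted p = 0.0506, limma), and PIM1, a kinase that phosphorylates BAD, by -0.28 ± 0.17 (SE). Of the 12 genes in this list 9 were tested, with a median difference of -0.00.

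**Figure D5:**
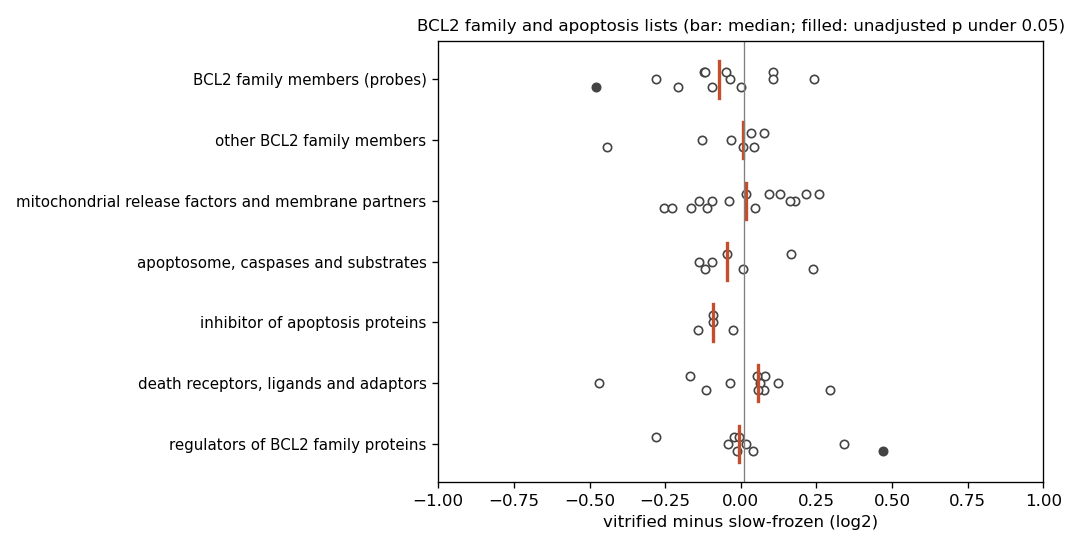
Log2 difference, vitrified minus slow-frozen, of the 12 tested probes of the BCL2 family (top) and of the tested genes of 6 apoptosis lists (1 point per gene), with an orange bar at the median of each row and a grey line at the median of all genes (0.01); filled points have an unadjusted p under 0.05. Medians lie between -0.09 and 0.06, and BAX and BTRC are the filled points.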

How the data were processed

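Amplified RNA of 4 vitrified and 4 slow-frozen pools was read on EMBV3 arrays in 2 dyes. The deposited intensity columns give, for each dye, the median brightness of a spot and of its surroundings, as the authors read them with Array-Pro and before any subtraction. In the 4 deposited files a vitrified and a slow-frozen channel are joined, although each pool was hybridised with a control pool. According to the methods the authors subtracted background, took log2, and applied lowess and quantile normalisation in FlexArray. The authors also deposited a table of log2 ratios, each column of which followed the Cy5 to Cy3 ratio computed from the matching file (r of at least 0.999937 over 43794 probes, medians -0.00124 to 0.00192). The deposited marks of ignored spots, a column of other content, were used to leave out 58 probes.

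After normexp background correction (offset 50), loess was applied to each file and quantile normalisation to the 8 pools. Probes brighter than 95% of the 153 negative control spots in at least 3 of 4 pools of a group were kept (30034). The bound was 81 to 332 raw units. Each pool was a sample in limma 3.58.1 (R 4.3.3, two-sided), with dye as a term. Slow-frozen values were subtracted from vitrified ones, and the Benjamini-Hochberg adjustment spanned every kept probe. The procedure was tested on simulated data. The number of pools limits the precision. Symbols came from the platform table, updated for 1524 probes.

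Members and lists were chosen with earlier results of these data known. Named genes are all members and, per list, the 3 genes with the smallest p. Some list symbols, BCL2L10, BIK, BBC3 and PMAIP1 among them, had no match in the table used here. Alternatives were other background corrections, normalisations, filters, blocks, weights, the value table and each pool left out. The raw-signal setting, and the settings for the lists, were added after seeing the data.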

Additional observations from a re-analysis of the deposited data

Results flagged for a closer look

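Each group of 4 pools was checked for a single pool far from the others, in 88 groups over 44 probes. In 5 groups 1 pool was that far away, where chance alone gives about 1 in 20 groups, and 0 of these were of the 9 BCL2 family genes followed here. In slow-frozen replicate 4, BCL2L13 had a log2 intensity of 8.85, against 10.19 to 10.39 in the other slow-frozen pools. In the same pool PIM1 was at 9.99, against 9.30 to 9.38, and KRT8, a trophectoderm keratin, at 15.48, against 15.87 to 15.93. POU5F1, an inner cell mass marker, was at 11.67 in slow-frozen replicate 2, against 12.46 to 12.54 in the other slow-frozen pools. FSHR, a granulosa cell marker, was at 6.57 in vitrified replicate 3, against 7.42 to 7.57 in the other vitrified pools. Its signal was near background, above the negative controls in 3 of 4 vitrified pools.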

How the results depend on the processing

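BAX was lower in vitrified pools, with an unadjusted p under 0.05, under all 21 alternatives (adjusted p from 0.256 to 1.00), and 0 family probes passed adjustment or the thresholds of the study under any. The alternatives draw on the same 8 pools and are not independent support. Another filter, dye term or block could not move the BAX difference in this balanced design, and it stayed at -0.48 there. The count of family probes with an unadjusted p under 0.05 was 1 as reported (where 4.81% of all probes had such a p). It was 2 with the file as a random block (9.02%), 2 on raw median-centred signal (2.45%) and 3 with array weights (7.43%). With a pool left out it was 1 to 2 (2.90% to 5.95%), the 2 being BAX and MCL1 without slow-frozen replicate 4 (5.95%). BCL2 reversed to -0.0053 with plain subtraction, -0.045 with Aquantile, -0.044 with median centring, -0.090 with array weights, -0.017 in the value table, -0.041 on raw signal, and ran from -0.063 to 0.11 with a pool left out. With array weights BAK1 was 0.27 and BCL2L1 EMBV3_12898 was -0.054. With a pool left out, BAK1 ran from -0.27 to 0.22, BCL2L1 EMBV3_12898 from -0.075 to 0.29, BOK from -0.32 to 0.031 and MCL1 EMBV3_02075 from -0.12 to 0.069. Without a change of sign, MCL1 EMBV3_00650 ran from 0.098 to 0.49, MCL1 EMBV3_08035 from -0.22 to -0.021, BCL2L1 EMBV3_29163 from -0.30 to -0.11, BCL2L1 EMBV3_06599 from -0.33 to -0.20, BID from 0.032 to 0.21 and BCL2L11 from -0.22 to -0.014. For the lists, the count of genes with an unadjusted p under 0.05 was 1 as reported, 0 with median centring and on raw signal, 2 with no filter, with no dye term and with the replicate block, 3 with array weights and in the value table, 4 with the file as a random block, and 0 to 3 with a pool left out, with 0 past adjustment throughout. Beside these list counts, the share of all probes with such a p was 9.02% with the file block, 7.43% with array weights and 7.39% in the value table. It was 5.10% with the replicate block, 4.53% with no dye term, 4.01% with no filter, 3.23% with median centring and 2.45% on raw signal. The cause of these shifts was not tested. Same-numbered pools correlated at -0.03 to 0.16 and 4 of 8 pools matched their own number best, so this check left it undetermined whether the numbers mark shared production cycles. With the replicate block BAX was again -0.48 (unadjusted p = 0.0124, limma), and the SE of BAK1 was 0.17. Signal limits BAD, BCL2 and BCL2L11, which lie near the negative control bound. The same holds for some named list genes. BCL2A1 was above the negative controls in 3 of 4 pools of each group, XIAP and TNFRSF1A in 3 of 4 vitrified pools, and ACIN1 in 3 of 4 slow-frozen pools.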
